A study of Homo sapiens with 4 samples.

Results

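The genes described here are 10 human genes that descend from the transposases of DNA transposons, out of 58735 genes counted. They are PGBD1, PGBD2, PGBD4 and PGBD5 of the piggyBac family, ZBED1, ZBED4, ZBED5 and ZBED6 with BED zinc fingers, THAP9, and POGZ. They were found by gene symbol, and all 10 were present. The list was drawn up around PGBD2 and ZBED6, which were chosen by their fold changes in these same libraries. Just inside the size threshold stated below was PGBD2, with a log2 fold change of −1.16, and just outside it PGBD1, with −0.68. The fold changes of the 10 genes are therefore given as a description. Where a member is said to meet a threshold, this states how it stood in the contrast that chose it and is no independent test.

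A DNA transposon encodes a transposase that cuts the element out of the genome and inserts it elsewhere. In several vertebrate lineages the transposase gene outlived its element and was kept as a host gene, a process called domestication. Such proteins usually keep the DNA-binding part of the transposase, and many act as transcription factors or chromatin proteins. A few still have the residues needed for catalysis.

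RNA was measured in HaCAT, a keratinocyte line of WT genotype, as poly-A RNA-seq. There were 2 libraries from cells given a normal control siRNA (siControl) and 2 from cells given siRNA against ALKBH5 (siALKBH5), each transfected with 200 pmol of siRNA in lipid reagent. ALKBH5 is an enzyme that removes N6-methyladenosine (m6A) from RNA, and the question was which transcripts differ when it is reduced. The labels do not say whether the 2 libraries of a group came from separate cultures, so every error below measures only the spread between these libraries, which may be technical.

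Each library held 16017502 to 18837807 counts, and the normalisation factors lay between 0.992 and 1.008. ALKBH5 itself measured 90.7 ± 4.42 CPM in siControl and 50.4 ± 1.13 in siALKBH5 (SD, n = 2), which was 55.5% of control. Its adjusted p was 6.4e-15 by edgeR's quasi-likelihood test with Benjamini-Hochberg adjustment. CPM are counts scaled to the library total over the genes tested, times its normalisation factor. In bulk RNA, fewer cells with the transcript and less of it per cell cannot be told apart, here and for every gene below. All 9 basal keratinocyte markers passed the filter on low counts, and their summed level was 17900 to 18300 CPM in siControl and 23200 CPM in both siALKBH5 libraries. KRT5 carried most of this rise, from 7034 ± 182 to 11250 ± 90.9 CPM (SD, n = 2). Of the 9 markers, 5 fell and 3 rose at an adjusted p under 0.05, with a median log2 fold change of −0.06. Under DESeq2, 2 fell and 3 rose at that level. Of 9 markers of other cells, 4 had at most 3 counts in every library, of which COL1A2 and PDGFRA were at 0, and 3 passed the filter. Most of the summed level of the 9, which was 21.3 to 22.5 CPM over the 4 libraries, came from COL1A1. It was counted 268 and 309 times in siControl and 310 and 267 times in siALKBH5. The share of mitochondrial counts was 10.2% in both siControl libraries and 9.63% to 9.64% in siALKBH5. Its part in the differences below was not tested.

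PGBD2 and ZBED6 were also the targets of the study's qRT-PCR primers, and these primers are shown because they mark which stretch of each transcript was probed. All are read 5′ to 3′.
PGBD2 forward: tggggtagggcaggttctta
PGBD2 reverse: agggtgcatgcttctggaaa
ZBED6 forward: cacctccagttcaggttctgt
ZBED6 reverse: acaactgctacagcagaaggg
The PGBD2 forward primer crosses an exon junction in the noncoding start of the transcript, and the reverse primer lies in coding sequence at chr1:248917349-248917368 (GRCh38). On the GENCODE 29 transcripts the pair spans 844 bases of PGBD2-201 and 167 bases of PGBD2-202, and none of these bases belongs to another gene. The ZBED6 primers lie at chr1:203800030-203800050 and chr1:203800102-203800122 and span 93 bases, without an exon junction. All 93 bases are also exonic in ZC3H11A-212 and ZC3H11A-214, transcripts of the gene that hosts ZBED6.

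Methylation by the m6A writer occurs at a short sequence context, of which GGACT is a frequent form. It was searched on the sense strand of 1 coding sequence per gene. Untranslated regions were left out, although the paper found its m6A peaks mostly in 3′UTRs and near stop codons. PGBD2 had 5 matches in 1779 coding bases, or 2.81 per kb, a density reached by 6.96% of 19674 coding genes. ZBED6 had 5 matches in 2940 coding bases, or 1.70 per kb, reached by 24.1% of genes. The median over all genes was 0.975 per kb. Among the other members the density ran from 0 in ZBED1 to 1.42 per kb in POGZ. The last match of each of the 3 members with an adjusted p under 0.05 is shown with its flanks, with the match in capitals and the plus or minus strand given.
PGBD2 (GRCh38 chr1:248917895-248917939, plus): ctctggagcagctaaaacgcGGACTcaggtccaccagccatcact
ZBED5 (GRCh38 chr11:10853152-10853196, minus): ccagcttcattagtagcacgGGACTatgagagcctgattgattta
ZBED6 (GRCh38 chr1:203800301-203800345, plus): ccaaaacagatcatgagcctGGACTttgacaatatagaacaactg
The match lies 137 bases before the end of the coding sequence in ZBED6, 308 bases before it in ZBED5 and 444 bases before it in PGBD2. Among the members, ZBED6 and POGZ alone had a match within the last 300 coding bases, as did 28.5% of 19132 genes with at least that much coding sequence. A match is only these letters in the reference and says nothing of methylation.

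Per exon length, the members spanned a wide range of levels. In siControl, POGZ was highest at 6.26 ± 0.0653 FPKM (CPM per kilobase of listed exon length, recomputed from the counts; SD, n = 2). ZBED5 followed at 5.76 ± 0.244, ZBED4 at 3.70 ± 0.102, ZBED1 at 2.42 ± 0.250 and PGBD2 at 2.10 ± 0.107 FPKM. Lower still were PGBD4 at 1.05 ± 0.163, PGBD1 at 0.871 ± 0.0144, THAP9 at 0.837 ± 0.113, PGBD5 at 0.214 ± 0.0240 and ZBED6 at 0.111 ± 0.0253 FPKM. Both PGBD1 libraries lay between those of THAP9 (0.757 and 0.917 FPKM), so these 2 genes did not differ beyond their spread. The gap between ZBED1 and PGBD2 and that between PGBD4 and THAP9 were smaller than the spread within ZBED1 and PGBD4. POGZ had a higher mean level than 62.4% of the 15075 genes tested, and ZBED6 a higher one than only 0.816%. Only 498 of the 12481 listed bases of ZBED6 belong to no other gene. Its FPKM and its place among the genes therefore depend on how reads in shared bases were counted, which is not known here.

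**Figure D1:**
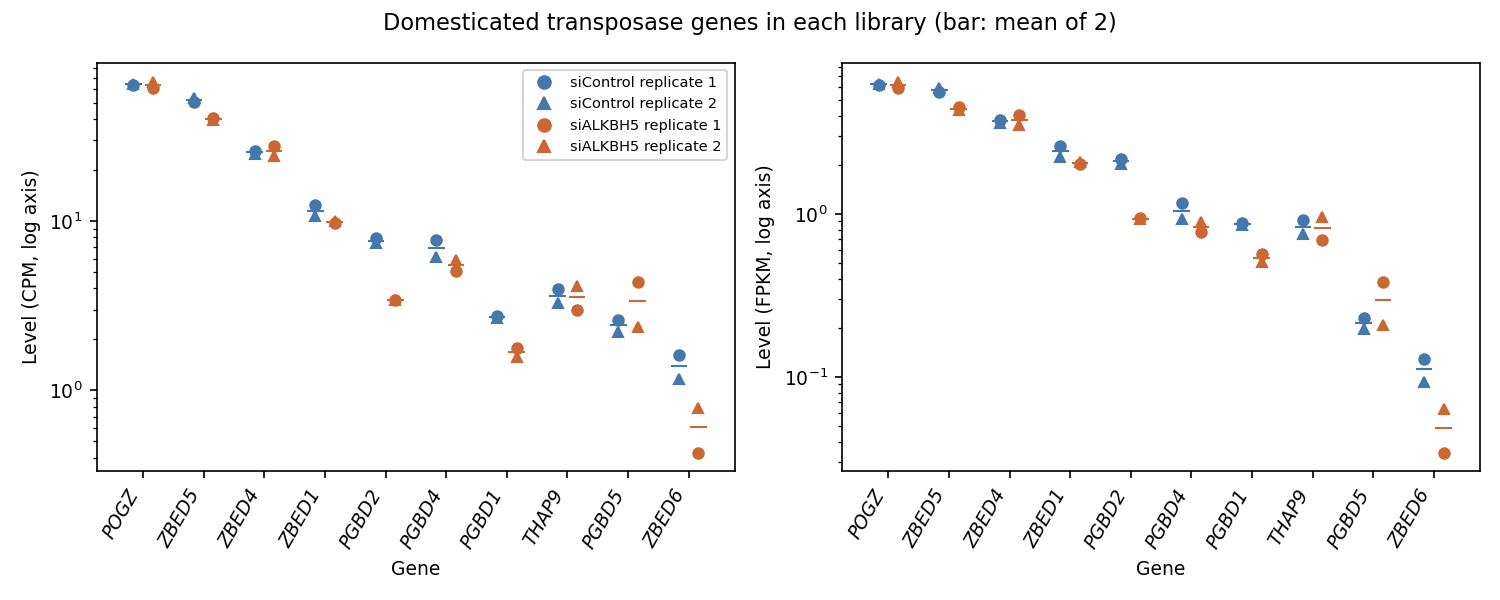
Level of each of the 10 genes in each library, in CPM on the left and FPKM on the right, both on log axes, with genes in order of their siControl FPKM. Circles and triangles are the libraries of replicate 1 and 2, blue for siControl and orange for siALKBH5, and bars are means of 2. PGBD2 and ZBED6, chosen by their fold changes in these libraries, show the lowest siALKBH5 means relative to siControl (44.5% and 43.8% of control). The PGBD5 siALKBH5 libraries lie far apart (4.34 and 2.37 CPM).

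Among the 10 genes, 8 had a lower mean and 2 a higher mean in siALKBH5, with a median log2 fold change of −0.28 beside −0.0081 over all genes tested. A gene met both thresholds where its adjusted p was under 0.05 and its log2 fold change was 1 or more in either direction. PGBD2 and ZBED6 met both with lower values, where 1.3% of all genes tested did so, and no member met both with higher values, where 1.62% did. ZBED5 was the only further member with an adjusted p under 0.05, which makes 3 lower and 0 higher, beside 17.3% of all genes tested that were lower and 19.3% that were higher. In 6 of the 10 genes both siALKBH5 libraries lay below both siControl libraries, beside 33.5% of all genes tested. Nothing is read from these counts, since the list was built from the same contrast. All 10 passed the filter on low counts, ZBED6 through siControl, where both libraries were over it and only 1 siALKBH5 library was.

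**Figure D2:**
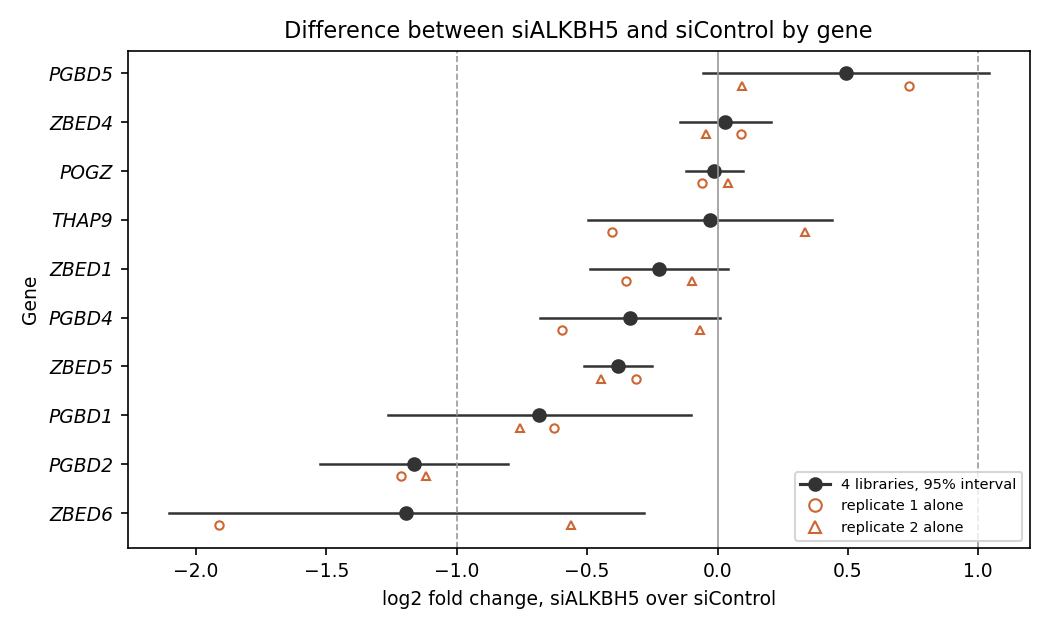
Log2 fold change of siALKBH5 over siControl for each gene, with the 95% interval from the 4 libraries in black and the ratio within each replicate number in orange; dashed lines mark a log2 change of 1 in either direction. PGBD2 and ZBED6 lie near −1.2, but the interval of ZBED6 (−2.11 to −0.28) is far wider than that of PGBD2 (−1.52 to −0.80), and PGBD5 lies to the right of 0 with an interval that includes it.

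The piggyBac-derived genes stem from an element first known from insects. PGBD2, whose product has no settled function, was counted 128 and 133 times in the siControl libraries and 64 and 56 times in the siALKBH5 libraries. Scaled to library size these were 7.94 and 7.39 CPM against 3.43 and 3.40 CPM. Both siALKBH5 libraries lay well below both controls, and the exact Poisson 95% intervals for counting error did not meet (6.19 CPM was the lowest control bound and 4.42 CPM the highest siALKBH5 bound). Over all genes, replicates differed by more than counting error, so these intervals understate the full error. As PGBD2 was chosen for this difference, the gap between the intervals is no independent support for it. The mean was 44.5% of control, a log2 fold change of −1.16 (SE 0.18, 95% interval −1.52 to −0.80), and 1.11% of genes tested had as low a value. PGBD2 (ENSG00000185220, chr1:248906196-248919946, 3651 exonic bases) shares no exonic base with another gene.

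PGBD1, which joins a SCAN domain to the transposase remnant, was counted 44 and 48 times in siControl and 33 and 26 times in siALKBH5. In CPM these were 2.73 and 2.67 against 1.77 and 1.58. The siALKBH5 libraries lay below the controls, with a log2 fold change of −0.68 (SE 0.28, 95% interval −1.26 to −0.10) at 62.0% of control.

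PGBD4 was counted 124 and 111 times in siControl and 95 and 97 times in siALKBH5, or 7.70 and 6.17 against 5.09 and 5.89 CPM. The groups did not overlap, but siControl replicate 2 and siALKBH5 replicate 2 were close to each other. The log2 fold change was −0.34 (SE 0.17, 95% interval −0.68 to 0.01).

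PGBD5, which has been reported to move piggyBac-like DNA in human cells, was counted 42 and 40 times in siControl and 81 and 39 times in siALKBH5. These were 2.61 and 2.22 against 4.34 and 2.37 CPM, so that only siALKBH5 replicate 1 stood above the controls and the groups overlapped. The log2 fold change was 0.49 (SE 0.27, 95% interval −0.06 to 1.04). It was −0.02 without siALKBH5 replicate 1 and 0.85 without siALKBH5 replicate 2, so the direction rests on 1 library.

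The balance within the piggyBac family moved with PGBD2. Of the counts of the 4 genes, PGBD2 made up 37.9% (Clopper-Pearson 95% interval 32.7 to 43.3) and 40.1% (34.7 to 45.6) in siControl, and 23.4% (18.5 to 28.9) and 25.7% (20 to 32.0) in siALKBH5. The intervals, which cover counting error only, did not meet between groups. The count of PGBD2 over that of PGBD4 was 1.03 and 1.2 in siControl and 0.674 and 0.577 in siALKBH5. Summed over the family, the level was 21.0 and 18.5 CPM in siControl and 14.6 and 13.2 CPM in siALKBH5. As PGBD2 was chosen for its own difference, these ratios are not independent of it.

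The ZBED genes carry the BED zinc finger and stem from hAT transposases. ZBED6, a repressor of the growth factor gene IGF2 in placental mammals, was counted 26 and 21 times in siControl and 8 and 13 times in siALKBH5. These were 1.61 and 1.17 against 0.428 and 0.790 CPM. The siALKBH5 libraries lay below the controls, but the exact Poisson 95% intervals met (0.722 to 1.78 CPM in siControl replicate 2 and 0.421 to 1.35 CPM in siALKBH5 replicate 2). The mean was 43.8% of control, with a log2 fold change of −1.19 (SE 0.45, 95% interval −2.11 to −0.28). The ratio was −1.91 on the log2 scale within replicate 1 and −0.56 within replicate 2.

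The ZBED6 value depended on single libraries. Its log2 fold change was −0.95 without siControl replicate 1, −1.42 without siControl replicate 2, −0.80 without siALKBH5 replicate 1 and −1.67 without siALKBH5 replicate 2. It met both thresholds only in the last of these 4 fits. DESeq2 gave it no adjusted p. For PGBD2 the log2 fold changes in the same 4 fits ran from −1.22 to −1.11.

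Most of ZBED6 cannot be separated from its host gene in the annotation. ZBED6 (ENSG00000257315, chr1:203795714-203854999, plus strand) has 12481 exonic bases in GENCODE 29, of which 11983 are also exonic in ZC3H11A on the same strand. They include all 5367 bases annotated as coding in any ZBED6 transcript. Of the shared bases, 2430 are coding in ZC3H11A. The ZBED6 coding sequence searched above has 2940 bases. Only a single noncoding stretch of 498 bases (chr1:203795795-203796292), 3.99% of its exons, is exonic in ZBED6 alone. It lies between annotated exons of ZC3H11A on the same strand. Reads of ZBED6 there cannot be told apart from reads of unspliced ZC3H11A RNA, so the ZBED6 difference may not be one of ZBED6 mRNA. This was not tested. ZC3H11A, which encodes a zinc finger protein of mRNA export, has 815 exonic bases of its own out of 12798. It was counted 7 and 3 times in siControl and 5 and 4 times in siALKBH5, too few to be tested. The options that decide how a read in both genes was counted are not given in the sources used here. No more ZBED6 counts than those of ZC3H11A can have been credited to both genes.

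Low counts went with such overlap across the table. Of 19951 protein-coding genes, 440 (2.21%) had under 5% of their exonic bases to themselves, and their median of mean counts was 0. The 14270 genes (71.5%) with at least 95% to themselves had a median of 102. Divided by its 498 own bases rather than its listed length, the ZBED6 level was 3.24 and 2.34 CPM per kb in siControl and 0.860 and 1.59 in siALKBH5. These levels hold only if all its reads came from those bases. What part the overlap has in the ZBED6 difference was not tested. For the other 9 members at least 91.7% of exonic bases were their own.

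**Figure D3:**
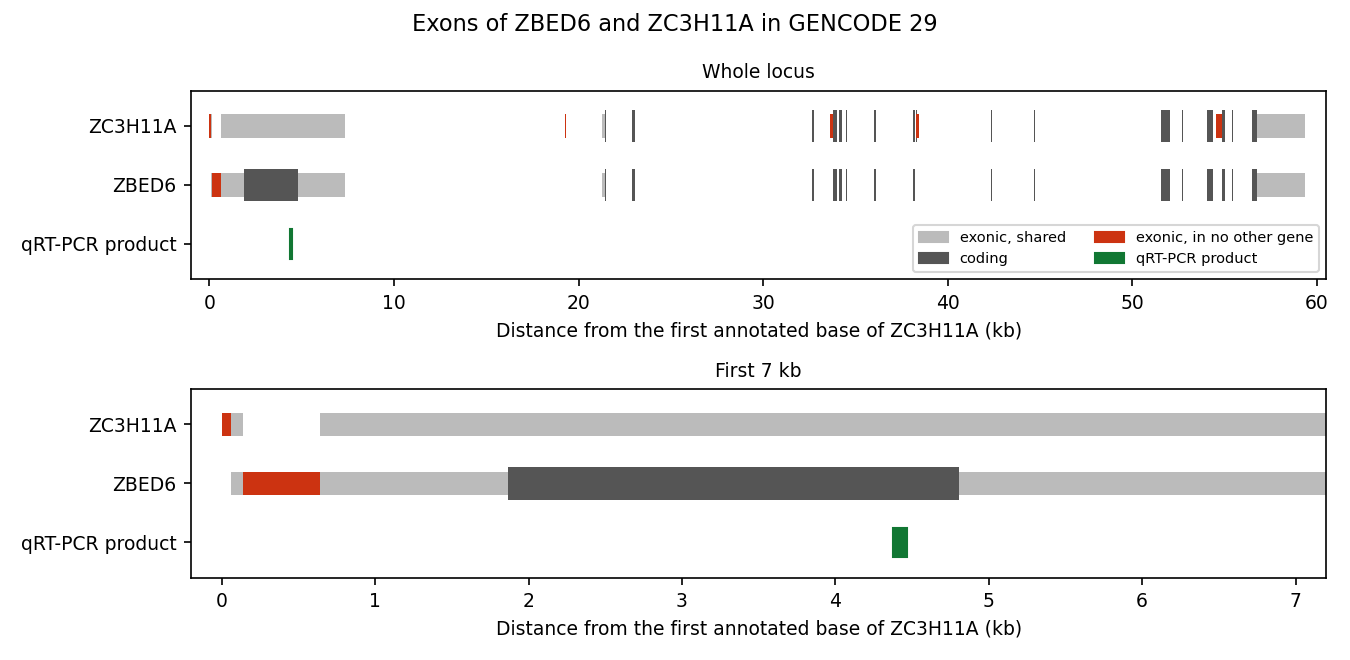
Exons of ZC3H11A and ZBED6 by distance from the start of ZC3H11A in kb, over the whole locus (top) and at its left end (bottom); light grey marks shared exonic bases, dark grey coding bases, red exonic bases found in no other gene and green the 93-base qRT-PCR product. The red stretch of ZBED6 is 498 bases long and lies to the left of all its coding bases, and the product lies in coding sequence that is exonic in both genes.

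ZBED5, a member of the Buster branch of the hAT group, had the smallest standard error of the 3 members with an adjusted p under 0.05. It was counted 813 and 964 times in siControl and 758 and 647 times in siALKBH5, or 50.5 and 53.6 against 40.6 and 39.3 CPM. The groups did not overlap and stood apart by more than the spread within either. The log2 fold change was −0.38 (SE 0.06, 95% interval −0.51 to −0.25), at 76.8% of control, which met the threshold on adjusted p but not that on size. Of its exonic bases 538 are shared with the antisense gene ZBED5-AS1, which was counted 176 and 191 times in siControl and 227 and 195 times in siALKBH5 (log2 fold change 0.16, SE 0.12, adjusted p = 0.34 by edgeR's quasi-likelihood test with Benjamini-Hochberg adjustment). Whether strand was used in counting is not given in the sources used here, so reads of the shared bases cannot be assigned.

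ZBED1, a homolog of the fly factor DREF that binds promoters of housekeeping genes, was counted 199 and 192 times in siControl and 181 and 164 times in siALKBH5. These were 12.4 and 10.7 against 9.69 and 9.97 CPM. The groups did not overlap, but the gap was smaller than the spread between the siControl libraries. Its log2 fold change was −0.23 (SE 0.13, 95% interval −0.49 to 0.04). ZBED1 lies in a region shared by the X and Y chromosomes, and the annotation holds a second copy.

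ZBED4 was counted 419 and 450 times in siControl and 517 and 399 times in siALKBH5, or 26.0 and 25.01 against 27.7 and 24.2 CPM. The siALKBH5 libraries lay on either side of the controls. Its log2 fold change was 0.03 (SE 0.09, 95% interval −0.14 to 0.20), an interval that leaves out a change as large as that of ZBED5. Summed over the 4 ZBED genes, the level was 90.4 CPM in both siControl libraries and 78.4 and 74.3 CPM in siALKBH5, and most of that gap in CPM came from ZBED5.

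THAP9 descends from the transposase of the P element and is known for having kept transposase activity. It was counted 64 and 59 times in siControl and 56 and 68 times in siALKBH5, or 3.97 and 3.28 against 2.998 and 4.13 CPM. The groups overlapped, with the lowest and the highest value both in siALKBH5. The log2 fold change was −0.03 (SE 0.23, 95% interval −0.50 to 0.44), so a change of moderate size in either direction was not detectable at this depth.

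POGZ, a pogo-derived zinc finger protein that binds heterochromatin protein HP1, was the most highly counted member. Its counts were 1028 and 1165 for siControl, then 1142 and 1096 for siALKBH5, or 63.8 and 64.7 against 61.1 and 66.6 CPM. The groups overlapped. The log2 fold change was −0.01 (SE 0.05, 95% interval −0.12 to 0.10), the narrowest interval of the 10 genes.

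Genes next to or across from the members gave a further view of the same loci. THAP9 shares 84 exonic bases with SEC31A, a coat protein of transport vesicles, which was higher in siALKBH5 by a log2 fold change of 0.14 (SE 0.05, adjusted p = 0.020), a call lost without siControl replicate 2 or siALKBH5 replicate 2 and under DESeq2 (adjusted p = 0.10). The p-values here too are from edgeR's quasi-likelihood test with Benjamini-Hochberg adjustment. THAP9-AS1, with 199 shared bases, had a log2 fold change of −0.14 (SE 0.10, adjusted p = 0.33). LIN54, a cell-cycle repressor subunit whose gene overlaps part of THAP9 without a shared exonic base, had a log2 fold change of 0.27 (SE 0.11, adjusted p = 0.064). DHRSX, which shares 396 exonic bases with ZBED1, was counted 54 and 67 times in siControl and 74 and 84 times in siALKBH5 (log2 fold change 0.35, SE 0.21, adjusted p = 0.21). AC116535.1, antisense to ZBED5, had a log2 fold change of 0.32 (SE 0.22, adjusted p = 0.28). The remaining overlapping genes, AL021997.3 at PGBD1, RNU6-1205P at PGBD2, RNY4P25 at POGZ, and AC114402.1 and AC114402.2 at ZBED6, had at most 4 counts in any library.

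Other genes that descend from DNA transposases were then counted, from a list of 42 that leaves out the 10 members. Of these, 41 were in the tables and 39 were tested. An adjusted p under 0.05 was reached by 7 genes that were lower (17.9%) and 3 that were higher (7.69%), beside 17.3% and 19.3% of all genes tested, and by none with a log2 fold change of 1 or more in size. The share of lower genes was thus near that of the whole table. The median log2 fold change was −0.10 and the range −0.60 to 0.28.

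Among the 7 lower genes, THAP8, of the same zinc finger family as THAP9, measured 5.73 ± 0.322 CPM in siControl and 3.72 ± 1.56 in siALKBH5 (log2 fold change −0.60, SE 0.21, adjusted p = 0.024). Its siALKBH5 libraries stood far apart, at 90 and 43 counts, and its adjusted p was 0.44 without siALKBH5 replicate 2 and 0.067 without siControl replicate 1. The hAT-derived FAM200B fell by 0.55 on the log2 scale (SE 0.14, adjusted p = 0.0029), with 155 and 196 counts against 123 and 124. FAM200A fell by 0.52 (SE 0.15, adjusted p = 0.0060), with 138 and 184 counts against 128 and 103, but its adjusted p was 0.12 without siControl replicate 2. GTF2IRD2B, which carries a hAT-derived segment, fell by 0.56 (SE 0.12, adjusted p = 2.5e-04), but it has a near-identical copy in GTF2IRD2 (log2 fold change −0.46, SE 0.27, adjusted p = 0.19), and how shared reads were split is uncertain. The other lower genes were THAP11 (adjusted p = 0.067 without siControl replicate 1), POGK (0.061 without siControl replicate 1 and 0.10 without siALKBH5 replicate 2) and CGGBP1.

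Of the 3 higher genes, ZBED2, a BED finger factor known from keratinocytes, measured 29.2 ± 1.17 CPM in siControl and 35.5 ± 0.126 in siALKBH5 (log2 fold change 0.28, SE 0.07, adjusted p = 0.0028). THAP4 rose by 0.25 (SE 0.06, adjusted p = 4.5e-04), and JRK, a homolog of the mouse jerky gene, rose by 0.19 (SE 0.06, adjusted p = 0.012), a call lost without siControl replicate 2 (0.062) or siALKBH5 replicate 1 (0.12). These p-values are from edgeR's quasi-likelihood test with Benjamini-Hochberg adjustment over the 15075 genes. Under DESeq2 the adjusted p was 0.13 for THAP8, 0.060 for FAM200A, 0.084 for POGK and 0.073 for JRK.

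**Figure D4:**
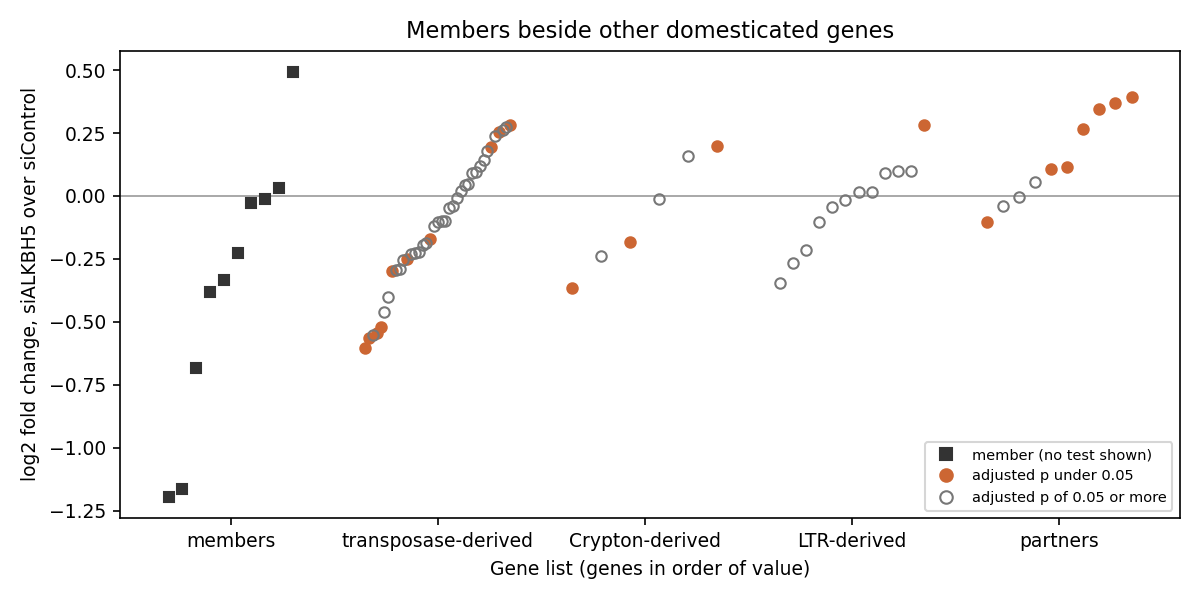
Log2 fold change of siALKBH5 over siControl for the 10 members (squares) and for the tested genes of 4 other lists (circles), each list in order of value; filled orange circles had an adjusted p under 0.05. PGBD2 and ZBED6 lie below every other gene shown, but they were chosen by their fold changes in these same libraries, so nothing is read from their place. Of the 10 tested partners, 6 are filled circles above 0, where DESeq2 called 3 higher.

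Known partners and targets of the members were looked at last. Of 10 partners tested, 6 rose and 1 fell at an adjusted p under 0.05, beside 19.3% and 17.3% of all genes tested, with a median log2 fold change of 0.11. Under DESeq2, 3 rose and 0 fell. Small shifts can reach this level in highly counted genes. Of the 9 keratinocyte markers, 5 fell and 3 rose by the same test. The shares are thus not read as a rise of the partners as a group. CBX5, which encodes the HP1 alpha protein that POGZ displaces from chromosomes, rose from 105.9 ± 0.743 to 139.0 ± 2.003 CPM (log2 fold change 0.39, SE 0.04, adjusted p = 7.2e-10). XRCC6, which encodes a Ku subunit of DNA end joining, rose by 0.37 (SE 0.03, adjusted p = 1.1e-12). MAD2L2 rose by 0.34 (SE 0.11, adjusted p = 0.016) and its binding partner CHAMP1 by 0.27 (SE 0.10, adjusted p = 0.030). Without siControl replicate 1 or siALKBH5 replicate 1 the adjusted p of MAD2L2 was 0.18 and 0.23, and without siControl replicate 2 or siALKBH5 replicate 2 that of CHAMP1 was 0.23 and 0.21. CBX3, the HP1 gamma gene, fell by 0.10 (SE 0.04, adjusted p = 0.031), and this was no longer past the threshold without siControl replicate 2 or without siALKBH5 replicate 1. Under DESeq2 the adjusted p was 0.087 for MAD2L2, 0.13 for CHAMP1 and 0.16 for CBX3.

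IGF2, the target that ZBED6 represses, had 0 counts in all 4 libraries in both of its annotated entries. A count of 0 allows up to 3 counts per library. Of the exonic bases of these entries, 1744 of 6979 and 584 of 5851 belong to 1 gene alone. No comparison of IGF2 between the groups could be made.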

How the data were processed

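Per the labels and methods, poly-A RNA of HaCAT cells was sequenced, and the submitters' processing notes name CASAVA, HISAT2 2.0.5, featureCounts 1.5.0-p3, DESeq2 1.20.0 and hg38. The authors deposited raw read counts per gene in 2 tables, 1 per replicate number, beside FPKM values and columns of their own comparison (log2 fold changes and p-values), which were not used. All 58735 gene identifiers and coordinates were those of GENCODE 29.

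Counts of the 4 libraries were joined and fitted with edgeR 4.0.16 (R 4.3.3): filterByExpr (15075 genes kept), TMM, and the quasi-likelihood test over all genes with Benjamini-Hochberg adjustment. The fit has few residual degrees of freedom, and the spread was shared across genes. The script was tested on simulated data. CPM and FPKM were recomputed from counts and from library totals over the 15075 genes kept, times the TMM factors. Intervals of fold changes come from the fit, and the Poisson and Clopper-Pearson intervals cover counting error only. Replicates differed by more than sampling noise (chi-square per degree of freedom 1.71 and 1.81).

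The members and lists were chosen with earlier results of these data known. Named genes were the members, ALKBH5, genes overlapping a member, and up to 4 per direction and list with an adjusted p under 0.05, by size of change. The text adds GTF2IRD2, THAP11, POGK, CGGBP1, IGF2, COL1A1, COL1A2, PDGFRA and KRT5, chosen after their values were seen. Alternatives were DESeq2 1.42.0, other scalings and filters, a replicate block and leaving out each library.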

Additional observations from a re-analysis of the deposited data

How the results depend on the processing

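Of 100 member log2 fold changes under the alternatives, 88 stayed within 1 SD of that gene's own replicates and 12 moved. All 12 that moved came from leaving out a library. The other alternatives refitted the same 4 libraries, so the 88 is no measure of stability against the choice of library. A reversal was scored only for PGBD2 and ZBED6, and 0 were found. In these genes both siALKBH5 libraries lay below both siControl libraries, so the alternatives could hardly change the sign. Nothing is read from the 0. A value within 1 SD may still change sign. That of THAP9 went from −0.03 to 0.20 without siALKBH5 replicate 1. With a library left out, the lone library of a group was assumed to vary like the other group. Over all genes, 196 were lower and 244 higher past both thresholds. DESeq2 gave 59 and 130, and dropping the minimum fold gave 2610 and 2913. Leaving out libraries gave 140 to 162 lower and 208 to 234 higher.

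Members lower past both thresholds numbered 1 under DESeq2, which gave ZBED6 no adjusted p, and 1 to 2 with a library left out. Lower transposase-derived genes numbered 4 under DESeq2 and 11 with library size only. Lower Crypton-derived genes numbered 1 under DESeq2, 1 without a filter and 1 to 1 with a library left out; the higher ones numbered 2 with DESeq2 size factors, without a filter and with a mean of at least 10 counts, and 1 to 2 with a library left out. For LTR-derived genes, 1 was lower with library size only, and with a library left out 0 to 1 were lower and 0 to 1 higher. Partners that fell numbered 0 under DESeq2, 0 without a filter and 0 to 1 with a library left out, and partners that rose 3 under DESeq2 and 4 to 5 with a library left out. The causes were not tested.

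Samples with the same replicate number deviated together with r = 0.034 over 15075 genes and 0.09 over 10416 genes with at least 100 counts, so the numbers were not taken to pair the samples. With the replicate block, 209 genes were lower and 254 higher, 2 members were lower past both thresholds, PGBD1 also came under an adjusted p of 0.05, 10 transposase-derived genes were lower and 2 Crypton-derived genes higher.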

Other observations

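Genes domesticated from other kinds of mobile element gave these values, except where DESeq2 is named by edgeR's quasi-likelihood test with Benjamini-Hochberg adjustment over 15075 genes. The 6 genes listed as derived from Crypton elements, which use a tyrosine recombinase in place of a cut-and-paste transposase, were all tested, with a median log2 fold change of −0.10. An adjusted p under 0.05 was reached by 2 that were lower (33.3%) and 1 that was higher (16.7%), beside 17.3% and 19.3% of all genes tested. ZMYM2, a partner of the LSD1 corepressor complex, was counted 1486 and 1698 times in siControl and 1311 and 1230 times in siALKBH5, and fell by 0.37 on the log2 scale (SE 0.05, adjusted p = 1.4e-07). ZMYM4 fell by 0.18 (SE 0.06, adjusted p = 0.027; 0.063 to 0.13 with any 1 library left out, and 0.14 under DESeq2), and ZMYM3 rose by 0.20 (SE 0.05, adjusted p = 0.0030).

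Of 31 genes listed as derived from LTR retrotransposons or endogenous retroviruses, 12 were tested and 9 had 0 counts in all 4 libraries. Their median log2 fold change was −0.0007. At an adjusted p under 0.05, 0 genes were lower, beside 17.3% of all genes tested. The number lower was 1 at an unadjusted p under 0.05 and 0 by DESeq2 at an adjusted one. At an adjusted p under 0.05, 1 gene (8.33%) was higher, beside 19.3% of all genes tested. This gene, PNMA1, was counted 393 and 501 times in siControl and 624 and 497 times in siALKBH5, with a log2 fold change of 0.28 (SE 0.08, adjusted p = 0.0067), and was no longer past the threshold without siControl replicate 1 (adjusted p = 0.13) or siALKBH5 replicate 1 (0.12).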
